A study of Mus musculus with 27 samples.

Results

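Acyl-CoA thioesterases were described in regenerating mouse liver through 10 genes, Acot1, Acot2, Acot3, Acot4, Acot7, Acot8, Acot9, Acot11, Acot12 and Acot13. They are a named part of the family, found by gene name among the 54532 genes of the deposited table, and were picked with earlier results of these data known. A thioesterase cleaves a fatty acyl-CoA or another acyl-CoA to the free acid and coenzyme A, and so works against the acyl-CoA synthetases that activate fatty acids. Type I enzymes (Acot1 to Acot6) have an α/β-hydrolase fold, and type II enzymes (the other members) have hotdog-fold domains. The family is spread over the cytosol (Acot1, Acot7, Acot12), mitochondria (Acot2, Acot9, Acot13) and peroxisomes (Acot3, Acot4, Acot8), and type I genes are known in rodent liver for their response to fasting and to ligands of the fatty acid receptor PPARA.

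RNA was measured in 27 liver libraries from wild-type mice of the strain C57/BL6J. The groups were a sham operation (n = 5, time given as not applicable), 24 h after 70% hepatectomy (PHx24, n = 7) and 48 h after it (PHx48, n = 7), each without etomoxir. A further pair of groups had the same resection and etomoxir, a drug that blocks carnitine palmitoyltransferase 1 and so keeps long-chain acyl groups out of mitochondria. It was injected intraperitoneally at 12.5 mg/kg 4 h before surgery (PHx24_ETO, n = 4), and once more at 24 h in the mice examined at 48 h (PHx48_ETO, n = 4). The labels do not say whether the other mice were given a vehicle, nor that each library is a separate animal, which means that a p-value here reflects only how libraries vary. No sham group received etomoxir.

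Libraries held 14903757 to 18446372 counts. All 10 hepatocyte markers were detected, with summed levels of 24509.6 to 65850.9 FPKM (fragments per kilobase of transcript length and 1e+06 fragments, scaled by the authors to a typical gene). Transcripts of other tissues were high in a few libraries: the 12 skeletal muscle markers summed to 5418.6 FPKM in sham replicate 1, 2022.7 in PHx24 replicate 1 and 638.5 in PHx48 replicate 3, and the 12 exocrine pancreas markers to 1138.4 in sham replicate 2. The thioesterase differences and their calls were recomputed without these 4 libraries, and a value that changed its sign or call is given beside the gene or in the closing paragraphs. Of the 54532 genes, 12376 had at least 1 FPKM in at least 4 libraries and were tested. All 10 thioesterase genes were among them, although Acot3 reached 1 FPKM in 18 libraries and in none of the sham group, and Acot11 in 6.

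The 4 type I genes lie side by side on the plus strand of chromosome 12 (GRCm38), within 72.5 kb between Acot2 at chr12:83987861-83993873 and Acot3 at chr12:84052144-84060402. Acot1 (chr12:84009490-84018371) and Acot4 (chr12:84038379-84048601) stand between them. Acot1 and Acot2 were 95.6% identical over their aligned coding bases, against 84% for Acot1 and Acot3 and 77.3% for Acot1 and Acot4. Of the 50-base stretches in the Acot2 transcript, 24.5% also occurred in Acot1 transcripts, and of those of Acot1 13.6% occurred in Acot2. Reads of this pair can therefore be lost or assigned to the wrong gene, and their separate values are uncertain. Acot3 shared 11% of its 50-base stretches with the overlapping gene Gm49366, which is listed at 0 counts in every library. Acot3 and Acot4 also overlap the antisense gene 4732463B04Rik (1 to 108 counts), and without strand their reads cannot be told apart. Acot9 shared 15.2% of its stretches with Acot10, whereas Acot7, Acot8, Acot11, Acot12 and Acot13 shared none with another gene.

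The promoters of the type I genes are shown because these neighbours were all higher than sham 48 h after resection, and that of Acot12 because it fell. Each is the 250 bases before the RefSeq start on GRCm38.p6, written 5′ to 3′ on the plus strand. They cover chr12:84009252-84009501 for Acot1, chr12:83987611-83987860 for Acot2, chr12:84051894-84052143 for Acot3, chr12:84038129-84038378 for Acot4 and chr13:91741271-91741520 for Acot12. In the deposited annotation Acot1 starts 12 bases and Acot12 9 bases before the RefSeq start. Capitals mark CCAAT or its reverse complement ATTGG, the half-site AGGTCA or TGACCT, and matches to the direct repeat AGGTCANAGGTCA with up to 2 mismatches on either strand.
Acot1 promoter: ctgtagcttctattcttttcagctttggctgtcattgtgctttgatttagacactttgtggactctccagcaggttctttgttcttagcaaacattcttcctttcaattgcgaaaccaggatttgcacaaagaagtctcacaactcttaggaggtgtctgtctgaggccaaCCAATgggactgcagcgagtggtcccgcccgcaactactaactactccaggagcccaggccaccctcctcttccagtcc
Acot2 promoter: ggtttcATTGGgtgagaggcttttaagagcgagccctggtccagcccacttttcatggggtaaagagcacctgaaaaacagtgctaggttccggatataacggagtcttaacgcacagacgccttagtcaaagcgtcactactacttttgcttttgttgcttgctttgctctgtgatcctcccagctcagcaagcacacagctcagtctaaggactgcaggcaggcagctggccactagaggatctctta
Acot3 promoter: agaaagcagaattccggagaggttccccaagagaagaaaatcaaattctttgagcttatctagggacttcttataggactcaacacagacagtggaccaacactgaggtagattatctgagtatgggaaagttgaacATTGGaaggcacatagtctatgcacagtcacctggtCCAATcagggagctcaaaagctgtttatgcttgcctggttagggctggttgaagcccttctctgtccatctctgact
Acot4 promoter: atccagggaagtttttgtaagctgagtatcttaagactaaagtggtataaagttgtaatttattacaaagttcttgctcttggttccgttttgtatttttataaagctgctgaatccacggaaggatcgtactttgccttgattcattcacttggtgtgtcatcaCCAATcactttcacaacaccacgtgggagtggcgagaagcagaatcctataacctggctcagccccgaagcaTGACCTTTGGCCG
Acot12 promoter: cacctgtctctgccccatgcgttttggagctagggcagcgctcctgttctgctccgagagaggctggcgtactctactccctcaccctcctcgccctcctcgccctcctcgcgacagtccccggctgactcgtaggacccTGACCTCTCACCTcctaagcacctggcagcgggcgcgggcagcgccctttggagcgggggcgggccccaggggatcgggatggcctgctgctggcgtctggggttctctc

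AGGTCANAGGTCA is the pattern bound by PPAR and RXR pairs, and exact copies were found in 0.0335% of 32817 mouse promoter windows of this length. None of the 9 thioesterase genes with a window (all but Acot13) held an exact copy. The Acot7 window belongs to a RefSeq start 7474 bases from the gene start in the deposited annotation. Acot4 held TGACCTTTGGCCG on the minus strand, with 2 mismatches, in the last 13 bases before the start. Acot12 held TGACCTCTCACCT with 1 mismatch, 110 to 98 bases before the start. Up to 2 mismatches are met by 3.23% of all windows, and both matches contain the half-site, which 14% of windows hold. CCAAT or ATTGG, present in 33.8% of windows, stood 79 to 75 bases before the start in Acot1, 77 to 73 in Acot3, 85 to 81 in Acot4 and, as ATTGG, 244 to 240 in Acot2. Only Acot4 of these 5 windows held CACGTG (6.02% of windows), 66 to 61 bases before the start. These matches describe letters and not sites, and matches outside the windows were not searched.

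In sham livers the mitochondrial Acot13 (chr13:24817948-24831540), a small hotdog-fold enzyme, had the highest level at 65.2 ± 16.1 FPKM (SD, n = 5). Acot12 (chr13:91741512-91786148), the cytosolic acetyl-CoA hydrolase of liver, followed at 27.2 ± 4.53 FPKM. The peroxisomal Acot8 (chr2:164792765-164804882, 9.22 ± 1.26 FPKM) and the cytosolic long-chain enzyme Acot7 (chr4:152178134-152271855, 8.92 ± 1.23 FPKM) came next. From Acot8 down through Acot7, Acot1, Acot4, Acot9, Acot2 and Acot11 the ranges of neighbours in this order overlapped. Acot3 was last and lay under the range of Acot11, with 0.02 to 0.377 FPKM (1 to 17 counts). In PHx48_ETO the order was Acot13 at 55.5 ± 17.6 FPKM (n = 4), Acot1 at 33.1 ± 9.59, Acot12 at 19.2 ± 1.88 and Acot2 at 14.4 ± 3.86. There the ranges of Acot13 and Acot1 overlapped, as did those of Acot12 and Acot2, and Acot11 was last at 0.427 ± 0.0848 FPKM.

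**Figure D1:**
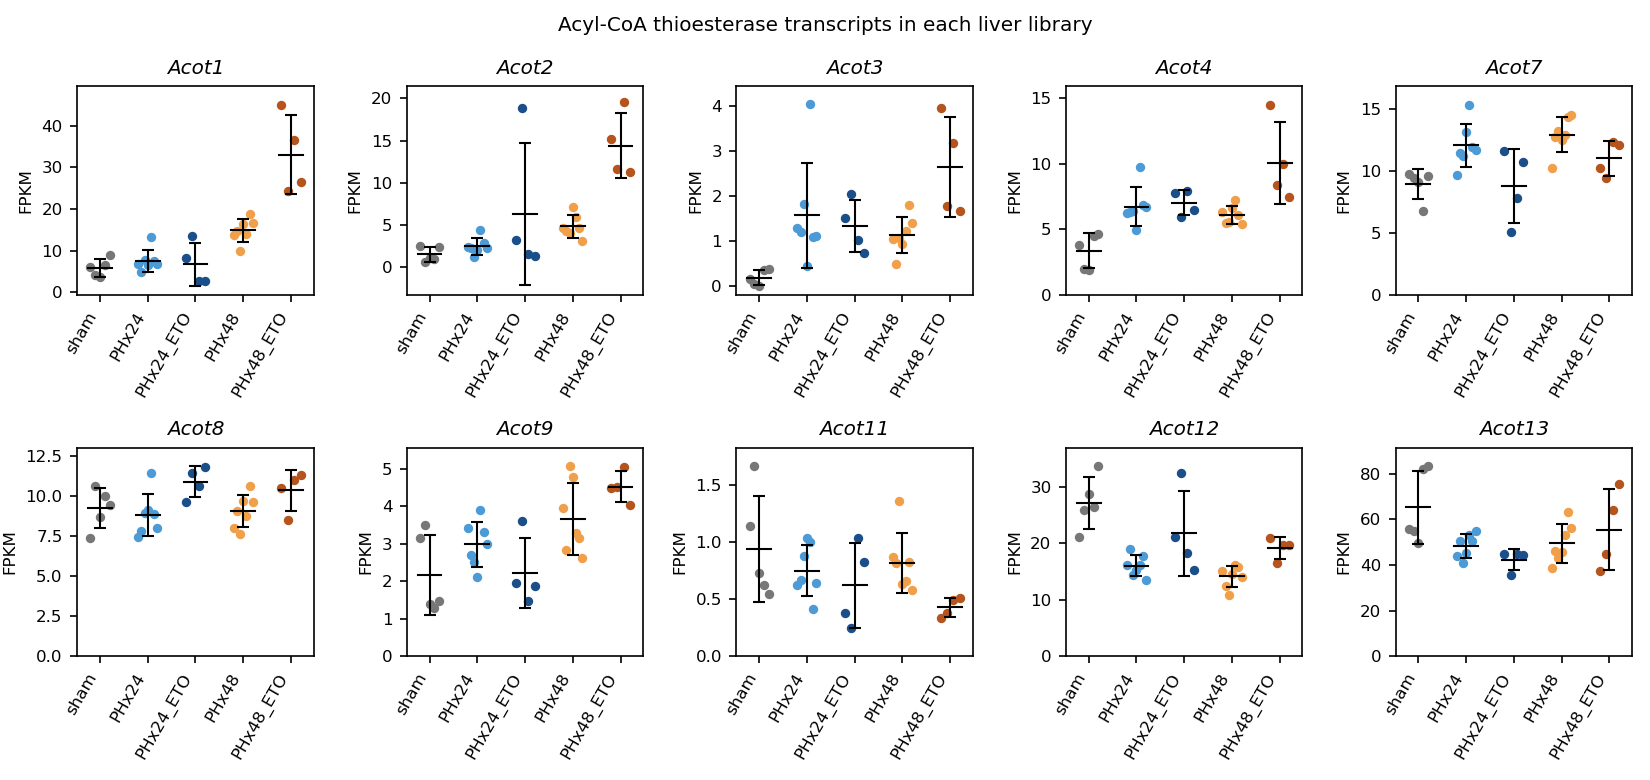
FPKM (y axis, linear) of each thioesterase gene in every library (points), by group (x axis), with the group mean and SD (bars). In PHx48_ETO, Acot1 reached 24.3 to 45.1 FPKM against 9.9 to 18.7 in PHx48, whereas Acot12 was at 21.1 to 33.6 FPKM in sham and at 10.8 to 19 in the PHx24 and PHx48 libraries.

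Among type I genes, resection alone was followed by higher Acot3 and Acot4 at 24 h and by higher Acot1, Acot2, Acot3 and Acot4 at 48 h. Acot1, a cytosolic long-chain acyl-CoA thioesterase, was at 5.93, 4.0, 3.59, 6.51 and 8.93 FPKM in the sham libraries. It ran from 4.76 to 13.2 FPKM (median 6.66) in PHx24 and from 9.9 to 18.7 (median 14.8) in PHx48. The PHx24 range covered the upper part of the sham range, and every PHx48 library lay above every sham library. In the quasi-likelihood test of edgeR, adjusted over all genes tested by the method of Benjamini and Hochberg, Acot1 rose by 1.38 on the log2 scale (SE 0.328, adjusted p = 0.00171) at 48 h. At 24 h the log2 difference was 0.41 (SE 0.32, adjusted p = 0.342).

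Acot2, its mitochondrial counterpart, was at 2.56, 0.691, 1.06, 1.02 and 2.4 FPKM in sham. In PHx24 it ran from 1.2 to 4.44 FPKM (median 2.27) and in PHx48 from 3.16 to 7.17 (median 4.62). The PHx24 values overlapped sham and the PHx48 values did not. Acot2 rose at 48 h by 1.65 on the log2 scale (SE 0.498, edgeR adjusted p = 0.0108), and at 24 h its log2 difference was 0.71 (SE 0.492, adjusted p = 0.28).

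The peroxisomal Acot3 gave 9, 3, 1, 16 and 17 counts in sham, or 0.155, 0.0602, 0.02, 0.359 and 0.377 FPKM. It ran from 0.454 to 4.04 FPKM (median 1.2) in PHx24 and from 0.503 to 1.8 (median 1.08) in PHx48. Every resected library lay above every sham library, and PHx24 replicate 5 was far above the others of its group. Acot3 rose by 3.07 on the log2 scale at 24 h (SE 0.534, edgeR adjusted p = 8.16e-05) and by 2.60 at 48 h (SE 0.531, adjusted p = 3.98e-04). Because the gene passed the expression filter only through resected groups and rests on few sham counts, the size of this rise is uncertain.

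Acot4, a peroxisomal thioesterase that acts on succinyl-CoA, was at 3.77, 1.99, 1.85, 4.5 and 4.63 FPKM in sham. It ran from 4.93 to 9.75 FPKM (median 6.43) in PHx24 and from 5.4 to 7.22 (median 6.05) in PHx48, without overlap with sham at either time. The rise was 1.03 on the log2 scale at 24 h (SE 0.206, edgeR adjusted p = 3.50e-04) and 0.89 at 48 h (SE 0.205, adjusted p = 0.00133).

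Of the type II genes in the cytosol, Acot12 fell and Acot7 rose. Acot12 was at 21.1, 25.8, 28.7, 26.5 and 33.6 FPKM in sham, and ran from 13.5 to 19 (median 16.2) in PHx24 and from 10.8 to 16.1 (median 14.6) in PHx48. All PHx24 and PHx48 libraries lay under all sham libraries. Acot12 fell by 0.74 on the log2 scale at 24 h (SE 0.138, edgeR adjusted p = 1.82e-04) and by 0.92 at 48 h (SE 0.138, adjusted p = 9.78e-06). The summed hepatocyte markers ran from 30326.7 to 65850.9 FPKM in sham, from 24509.6 to 32852.7 in PHx24 and from 29017.9 to 41596.2 in PHx48. Of these 10 markers 1 rose and 4 fell at 24 h (median log2 difference 0.02), and 0 rose and 4 fell at 48 h (median -0.22). In bulk liver fewer cells of a type and less RNA per cell cannot be told apart. The part of cell makeup in the fall of Acot12 was not tested.

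Acot7, which favours long-chain substrates and is best known from brain, was at 9.74, 9.42, 9.12, 6.75 and 9.59 FPKM in sham. It ran from 9.67 to 15.3 FPKM (median 11.7) in PHx24, just overlapping sham, and from 10.2 to 14.5 (median 12.9) in PHx48, above all sham libraries. The rise was 0.44 on the log2 scale at 24 h (SE 0.152, edgeR adjusted p = 0.0252) and 0.54 at 48 h (SE 0.152, adjusted p = 0.0067). At 24 h it depended on single libraries: without sham replicate 4 the log2 difference was 0.33 with an adjusted p of 0.107, and the call was also lost without sham replicate 3 or PHx24 replicate 5.

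In the mitochondrial pair, Acot13 fell slightly and Acot9 rose at 48 h, both close to the threshold. Acot13 was at 55.8, 55.1, 49.8, 82.2 and 83.2 FPKM in sham, and ran from 40.7 to 54.7 (median 50.7) in PHx24 and from 38.5 to 63.3 (median 46) in PHx48, overlapping sham at both times. Its fall was 0.41 on the log2 scale at 24 h (edgeR adjusted p = 0.0363) and 0.38 at 48 h (adjusted p = 0.0478). These calls were lost without sham replicate 4 or 5, without any of several resected libraries and in the limma fits. The highest adjusted p on leaving out 1 library was 0.104 at 24 h and 0.131 at 48 h, and on log2(TPM + 1), where the median of all genes moved to 0.32, the 48 h difference was -0.01.

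Acot9, which acts on a wide range of acyl-CoA, was at 3.15, 3.49, 1.39, 1.29 and 1.48 FPKM in sham. It ran from 2.11 to 3.89 FPKM (median 2.98) in PHx24 and from 2.61 to 5.06 (median 3.28) in PHx48. The 2 highest sham values came from the libraries with muscle and pancreas transcripts. Acot9 rose at 48 h by 0.76 on the log2 scale (SE 0.264, edgeR adjusted p = 0.0249). This call did not hold without sham replicate 3, 4 or 5 or PHx48 replicate 3 or 4, nor when sham and PHx48 were fitted alone (adjusted p = 0.0637). At 24 h the log2 difference was 0.47 (adjusted p = 0.175), and 1.09 (adjusted p = 0.00313) when the 4 libraries rich in muscle or pancreas transcripts were left out.

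The remaining type II genes did not pass the edgeR test after resection. Acot8, a peroxisomal enzyme of broad substrate range, was at 7.37 to 10.6 FPKM in sham, 7.43 to 11.4 in PHx24 and 7.64 to 10.6 in PHx48. Its log2 difference from sham was -0.05 (SE 0.105) at 24 h and -0.01 (SE 0.105) at 48 h, and 0.14 and 0.33 on log2(TPM + 1). The 48 h value on that scale, where the median of all genes was 0.32, was called by limma (adjusted p = 0.00836). Acot8 overlaps Snx21, which had 103 to 345 counts. Acot11 (chr4:106744555-106804998), a thioesterase with a lipid-binding START domain known from brown fat, was at 1.14, 1.66, 0.726, 0.624 and 0.541 FPKM in sham. The 2 highest of these were again the sham libraries with transcripts of other tissues. Its log2 difference was -0.32 (SE 0.319) at 24 h and -0.19 (SE 0.318) at 48 h, and 0.31 and 0.22 without the 4 such libraries.

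In all, 5 of 10 thioesterase genes were called at 24 h, 3 higher and 2 lower, where 35% of all genes tested were called (19.1% higher, 15.8% lower). At 48 h 8 of 10 were called, 6 higher and 2 lower, against 36.5% of all genes (19.5% higher, 17% lower). Acot3, at under 1 FPKM in all of sham, could be tested only because it was higher after resection. Without it 4 of 9 genes were called at 24 h (2 higher, 2 lower) and 7 of 9 at 48 h (5 higher, 2 lower). The median log2 difference of these 9 genes was 0.41 at 24 h and 0.54 at 48 h, beside 0.01 over all genes at both times. FPKM ranges did not overlap sham for 3 genes at 24 h, 2 higher and 1 lower, against 17.7% of all genes (9.41% higher, 8.29% lower). At 48 h they did not for 6 genes, 5 higher and 1 lower, against 19.9% of all genes (11.6% higher, 8.31% lower). Acot3 is among the higher genes in both range counts, and the limit set by the filter holds for them too. Both comparisons use the same sham libraries. On log2(TPM + 1), where the median of all genes moved to 0.19 and 0.32, the calls were 4 higher and 1 lower at 24 h and 7 higher and 1 lower at 48 h, with Acot13 no longer called at either time. Acot9 at 24 h and Acot8 at 48 h were called higher on that scale and not by edgeR.

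Between the resected groups without etomoxir, Acot1 was the single gene of the 10 called, higher at 48 h than at 24 h by 0.97 on the log2 scale (SE 0.289, edgeR adjusted p = 0.0281), where 11.6% of all genes were called (6.19% higher, 5.41% lower). The highest adjusted p on leaving out 1 library was 0.0578, and the call was lost without PHx24 replicate 1, 2, 4 or 7 or PHx48 replicate 6. Acot2 had a similar log2 difference of 0.95 with a larger error (SE 0.427, adjusted p = 0.157). For the peroxisomal genes the values were -0.47 for Acot3, which became -0.03 without PHx24 replicate 5, and -0.15 for Acot4. No member had ranges apart in PHx24 and PHx48, against 4.92% of all genes (2.88% higher, 2.04% lower).

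**Figure D2:**
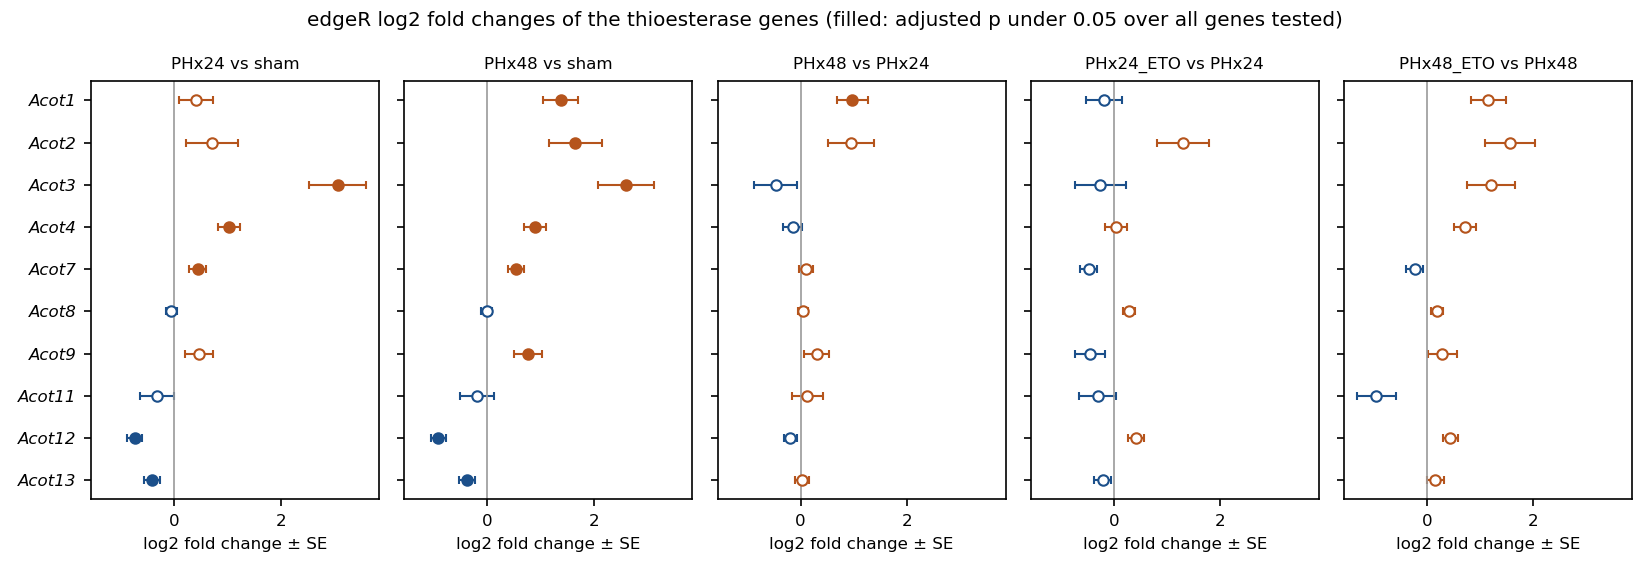
edgeR log2 fold changes (x axis) of the 10 genes (y axis) in 5 comparisons, with SE as bars and filled points for an adjusted p under 0.05 over all genes tested. After resection Acot3 stands highest at 3.07 and 2.60 and Acot12 lowest at -0.74 and -0.92, and in both etomoxir panels no point is filled.

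With etomoxir at 48 h, Acot1, Acot2, Acot4 and Acot12 were higher and Acot11 lower in every library than in every PHx48 library, yet none passed the adjusted threshold. Acot1 was at 45.1, 24.3, 36.5 and 26.5 FPKM in PHx48_ETO, where the PHx48 maximum was 18.7. Acot2 was at 15.2, 11.6, 19.5 and 11.3 FPKM, where the PHx48 maximum was 7.17. The lowest treated library of either gene thus lay above the highest untreated one. The fold differences were 2.23 for Acot1 (log2 1.15, SE 0.325, unadjusted p = 0.00153, edgeR adjusted p = 0.219) and 2.95 for Acot2 (log2 1.56, SE 0.471, unadjusted p = 0.00275, adjusted p = 0.29).

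Acot4 was at 14.5, 8.36, 9.97 and 7.45 FPKM in PHx48_ETO and no more than 7.22 in PHx48. Acot3 was at 3.95, 1.79, 3.18 and 1.67 FPKM in PHx48_ETO, and its PHx48 maximum of 1.8 lay above 2 of these. The fold differences were 1.65 for Acot4 (log2 0.72, SE 0.208, edgeR adjusted p = 0.231) and 2.32 for Acot3 (log2 1.21, SE 0.452, adjusted p = 0.457). All 4 neighbours of the chromosome 12 cluster thus had positive differences, and reads shared between them make these values not fully separate.

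Of the type II genes, Acot12 was at 21, 16.5, 19.6 and 19.6 FPKM in PHx48_ETO against a PHx48 maximum of 16.1 (log2 difference 0.44, SE 0.147, adjusted p = 0.363). The fall of Acot12 after resection and its higher values with etomoxir share the PHx48 libraries and are given side by side only. Acot11 was at 0.331, 0.381, 0.491 and 0.505 FPKM against a PHx48 minimum of 0.578 (log2 difference -0.95, SE 0.36, adjusted p = 0.463), on 41 to 49 counts per treated library. Acot7 (-0.23), Acot8 (0.19), Acot9 (0.29) and Acot13 (0.16) had overlapping ranges. Acot13 spread from 37.4 to 75.7 FPKM within PHx48_ETO.

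By edgeR 0 of 10 genes were called for etomoxir at 48 h, where 0.21% of all genes were (0.129% higher, 0.0808% lower). At an unadjusted p under 0.05 there were 6 (Acot1, Acot2, Acot3, Acot4, Acot11 and Acot12), against 8.11% of all genes, and DESeq2 and limma also called 0. A fit of the PHx48 and PHx48_ETO libraries alone called Acot1 (adjusted p = 0.0127) and Acot2 (adjusted p = 0.00385) among 33 genes in all, where the fit of all groups called 26. Ranges were apart for 5 of 10 genes, 4 higher and 1 lower, against 2.22% of all genes (1.26% higher, 0.962% lower). By size of change, 1.91% of all genes differed more than Acot1, 1.01% more than Acot2, 1.73% more than Acot3 and 4.58% more than Acot4. For the type II genes this share ran from 2.76% (Acot11) to 42.5% (Acot13). The median log2 difference of the 10 genes was 0.37, beside -0.01 over all genes.

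At 24 h etomoxir was followed by no called change in the 10 genes. Acot1 was at 8.13, 13.4, 2.69 and 2.64 FPKM in PHx24_ETO, which reached both under and above the PHx24 range of 4.76 to 13.2 (log2 difference -0.18, SE 0.34, edgeR adjusted p = 0.802). Acot2 was at 3.27, 18.8, 1.64 and 1.36 FPKM, so that PHx24_ETO replicate 2 alone lay above the PHx24 maximum of 4.44. Its log2 difference of 1.30 (SE 0.483, adjusted p = 0.13) became -0.27 without that library, and the group mean of 6.26 ± 8.39 FPKM became 2.09 ± 1.03 (SD, n = 3). Acot3 (1.51, 2.06, 1.03 and 0.748 FPKM) and Acot4 (7.78, 5.95, 7.9 and 6.49 FPKM) overlapped PHx24, with log2 differences of -0.25 and 0.04.

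PHx24_ETO replicate 2 also stood apart for Acot5, a peroxisomal type I gene of the same cluster that is not among the 10. Acot5 was at 18.2 FPKM (454 counts) there, and no higher than 0.747 FPKM and 21 counts in the other 26 libraries, with 0 counts in all of sham. The same library had the lowest Acot13 of its group (35.6 FPKM), the lowest Acot7 (5.03) and the highest Acot12 (32.4). Its 12 muscle markers summed to no more than 0.995 FPKM, the maximum of its group. Whether this library differed in treatment or preparation was not tested.

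Acot7 (11.6, 5.03, 7.81 and 10.7 FPKM), Acot8 (9.61, 11.4, 10.6 and 11.8) and Acot12 (21.1, 32.4, 18.3 and 15.2) had log2 differences of -0.47, 0.29 and 0.42 in PHx24_ETO. Each overlapped PHx24, with edgeR adjusted p-values of 0.107, 0.151 and 0.107. Acot7 was called without PHx24_ETO replicate 1 and Acot12 without PHx24_ETO replicate 4, and without replicate 2 their log2 differences were -0.27 and 0.16. Acot9 was at 1.94, 3.6, 1.48 and 1.88 FPKM, of which all but replicate 2 lay under the PHx24 minimum of 2.11. Its log2 difference was -0.44, and -0.78 without that library. Acot11 (-0.30, and -0.03 without replicate 2) and Acot13 (-0.21) overlapped PHx24. Thus edgeR called 0 of 10 genes where 2.9% of all genes were called (1.58% higher, 1.33% lower), 4 genes had an unadjusted p under 0.05 (19.4% of all genes did), and DESeq2 and limma called 0. Ranges were apart for 0 genes, against 3.24% of all genes (1.83% higher, 1.41% lower). The median log2 difference of the 10 genes was -0.20, beside 0.01 over all genes.

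Whether the etomoxir effect at 48 h differed from that at 24 h was tested in the same fit. It was 1.34 for Acot1 (SE 0.477, unadjusted p = 0.00946, edgeR adjusted p = 0.409), 1.47 for Acot3 (adjusted p = 0.54) and 0.68 for Acot4 (adjusted p = 0.528), all on the log2 scale. For Acot2 it was 0.26, and 1.84 without PHx24_ETO replicate 2. edgeR called 0 of 10 genes where 0.0162% of all genes were called, 3 had an unadjusted p under 0.05 (8.6% of all genes did), and DESeq2 and limma called 0. An etomoxir effect that differs between the times was therefore not shown for any member, and the 48 h mice had also received a further dose.

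The type I share of the thioesterase transcripts was higher in the resected groups than in sham. Summed over the 10 genes the level was 124.5 ± 21.3 FPKM in sham (SD, n = 5), 107.4 ± 12.4 in PHx24 (n = 7) and 116.9 ± 13.5 in PHx48 (n = 7). With etomoxir it was 108.0 ± 15 FPKM in PHx24_ETO and 161.1 ± 22.3 in PHx48_ETO (n = 4 each). The ranges of sham (105.0 to 154.2) and PHx48_ETO (130.0 to 182.0) overlapped. The 4 type I genes made up 8.57 ± 2.42% of the sum in sham, 16.9 ± 3.41% in PHx24 and 23.1 ± 2.05% in PHx48, and 18.9 ± 8.83% and 37.4 ± 8.62% in the etomoxir groups at 24 h and 48 h. The share ran from 5.97 to 11.2% in sham and from 20.2 to 26.2% in PHx48, without overlap, and from 27.6 to 48.5% in PHx48_ETO. In PHx24_ETO it ran from 11.7 to 31.3% (median 16.2%), overlapping the 13.6 to 23.8% of PHx24 (median 16.5%).

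**Figure D3:**
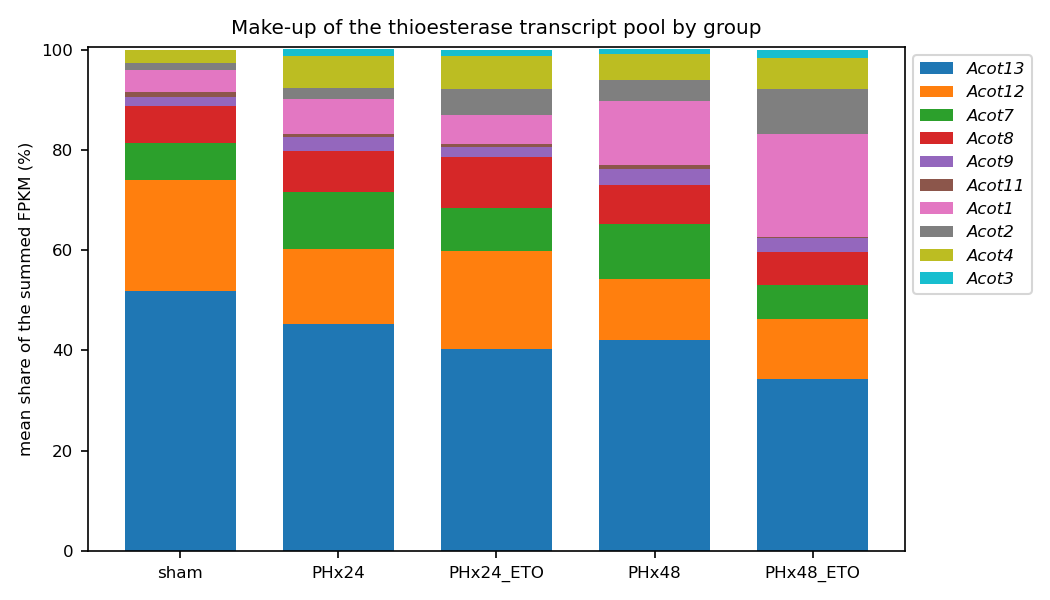
Mean share of each gene in the summed FPKM of the 10 thioesterase genes (y axis, percent) in each group (x axis). Acot13 takes 51.9% in sham and 34.3% in PHx48_ETO, and Acot1 takes 4.55% and 20.5%.

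The share of Acot13 was 51.9 ± 4.58% in sham and 34.3 ± 8.82% in PHx48_ETO, and that of Acot1 4.55 ± 1.06% and 20.5 ± 5.16%. By compartment, the cytosolic genes had 33.9 ± 3.92% in sham and 39.3 ± 5.38% in PHx48_ETO. The mitochondrial genes had 55 ± 4.06% and 46 ± 7.83%, and the peroxisomal genes 10.3 ± 0.695% and 14.3 ± 2.49%. The ranges of both groups overlapped for the cytosol and mitochondria and not for the peroxisome. The peroxisomal share was 15.8 ± 1.89% in PHx24 and 14 ± 0.643% in PHx48, each above the sham range of 9.36 to 11.3%.

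Across the 27 libraries, on log2(FPKM + 1), Acot1 and Acot2 had a Pearson correlation of 0.87, and of 0.76 with the group means removed. Acot3 and Acot4 had 0.87 and 0.62. These are neighbours in sequence as well as in position, so that shared reads, libraries and group differences all enter the values. Across the pairs, Acot1 with Acot3 had 0.67 and 0.70, and Acot2 with Acot4 0.63 and 0.24. Acot12 had -0.13 with Acot1 over all libraries and 0.61 with the group means removed, and -0.68 and -0.39 with Acot7. Acot11 and Acot12 had -0.29 and -0.63. In PHx24_ETO replicate 2, Acot1 and Acot12 were the highest of the group and Acot7 and Acot11 the lowest. The correlations were not recomputed without that library.

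**Figure D4:**
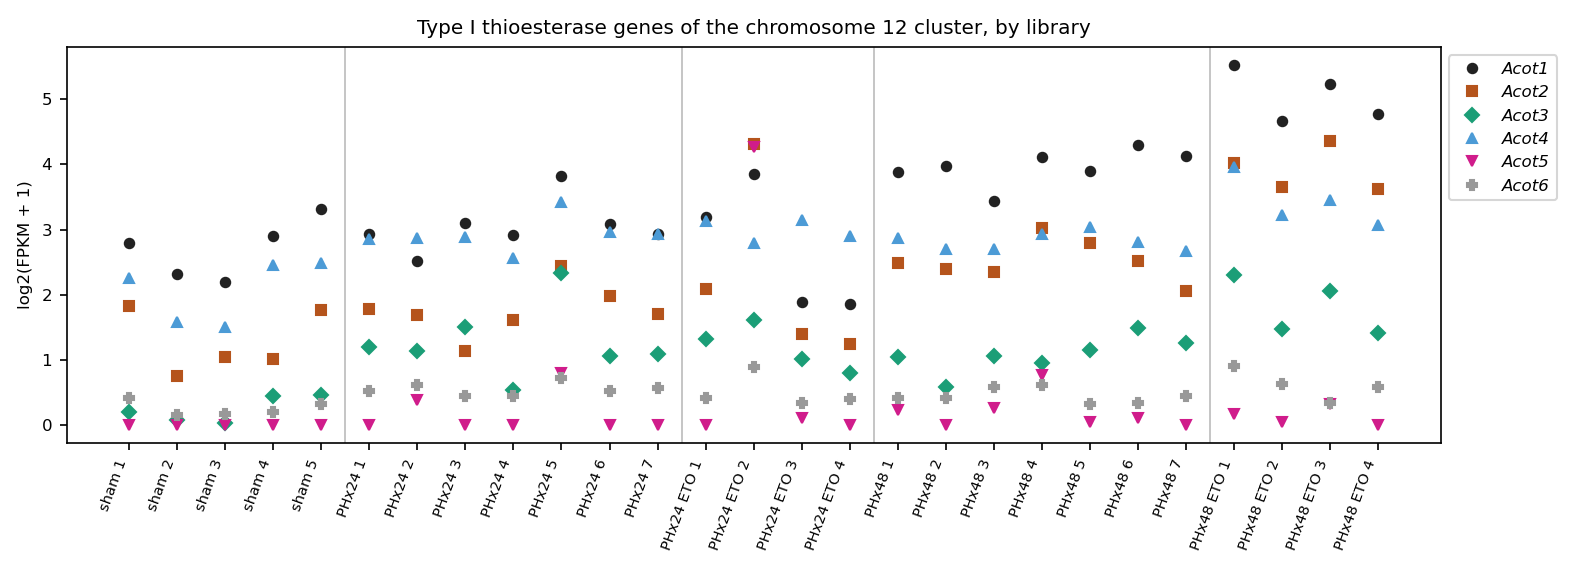
log2(FPKM + 1) (y axis) of 6 type I genes of the chromosome 12 cluster in each library (x axis, groups separated by lines). PHx24 replicate 5 is high for Acot1, Acot3 and Acot4, and PHx24_ETO replicate 2 is the single library in which Acot5 reaches the level of Acot2 (18.2 and 18.8 FPKM).

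The genes whose log2(FPKM + 1) followed each thioesterase most closely over the 27 libraries were ranked by Pearson correlation among all genes tested. For Acot1 these were Uevld (0.87), Abhd6 (0.87), a monoacylglycerol lipase, and Mtnr1a (0.85). For Acot2 they were Nln (0.89), Otud7b (0.86) and Nt5c2 (0.86), and for Acot4 Slc16a1 (0.88), the monocarboxylate transporter of lactate and ketone bodies, Zfr (0.85) and Abhd2 (0.82). With the group means removed the first of each were at 0.57 for Uevld, 0.67 for Nln and 0.72 for Slc16a1. Acot13 was followed by respiratory chain genes, Ndufb4 (0.91), Ndufa4 (0.91) and the ATP synthase gene Atp5j (0.90), at 0.87, 0.88 and 0.85 with the group means removed. Sham replicates 4 and 5 had the highest Acot13 (82.2 and 83.2 FPKM) and also the highest FPKM summed over all genes (552740.3 and 588173.4). The part of library scaling in these correlations was not tested. Acot12 was followed by Dennd4a (0.91), Fam126b (0.90) and Hbp1 (0.90).

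For Acot3 the closest were Rad51b (0.82), Cyp2a22 (0.81) and Pdss1 (0.81), and for Acot7 Coa3 (0.86), Cmc2 (0.84) and Aldh4a1 (0.84). Acot9 was followed by Anxa2 (0.83), Gnb1 (0.81) and Fam49b (0.80), with Anxa2 at 0.81 after the group means were removed. The values were lowest for Acot8 (Gm7666 0.74, Fabp2 0.72 and Hacd3 0.70) and Acot11 (Plekhb2 0.74, Egfl7 0.73 and Itpk1 0.73). Each is the highest of many correlations over libraries that share groups, and is a description.

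The genes that make, bind and use acyl-CoA were counted beside the thioesterases. Over all genes tested, 35% were called at 24 h (19.1% higher, 15.8% lower) and 36.5% at 48 h (19.5% higher, 17% lower). Of 15 tested acyl-CoA synthetase genes, which make the thioesterases' substrates, 0 rose and 8 fell at 24 h, and 2 rose and 7 fell at 48 h. The largest falls at 48 h were those of Acss1 (by 3.13 on the log2 scale, SE 1.15, edgeR adjusted p = 0.0339) and Slc27a2 (by 1.22, SE 0.158). Of 7 acyl-CoA binding proteins 4 fell at each time, among them Fabp1 (by 1.23 at 24 h) and Scp2 (by 1.03 at 48 h), and 1 rose at 48 h. Of 13 genes of coenzyme A synthesis and turnover 2 rose and 6 fell at 24 h and 6 fell at 48 h, among them Nudt7 (by 1.69 at 48 h), a peroxisomal hydrolase of coenzyme A. Of 18 genes of peroxisomal β-oxidation, the compartment of Acot3, Acot4 and Acot8, 7 fell at 24 h and 10 at 48 h, led by Acox3 (by 1.26 at 48 h), and 0 rose. The median log2 differences at 48 h were -0.56, -0.67, -0.24 and -0.42 for these lists, beside 0.65 for the thioesterases (0.54 without Acot3), all relative to a typical gene. The other lists were not counted on the TPM scale, nor without the 4 libraries rich in muscle or pancreas transcripts. The part of such transcripts in the fall of Acss1 was not tested.

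Among 6 tested thioesterases outside the 10, Them6 (1.02) and the fatty acid synthase gene Fasn (0.79), whose product carries a thioesterase domain, rose at 48 h, and 2 fell. These were Baat, which joins bile acids to amino acids and is related to the type I enzymes (by 0.89), and Them4 (by 0.50). At 24 h Them6 rose (1.04), Baat fell by 0.88 and Fasn fell by 0.78. Of 27 tested PPARA target genes 3 rose and 5 fell at 24 h, and 3 rose and 12 fell at 48 h. Beside both lists, 35% of all genes were called at 24 h and 36.5% at 48 h in either direction. The fatty acid ω-hydroxylase Cyp4a14 rose by 4.04 at 24 h and 2.03 at 48 h, and Cyp4a32 fell by 1.89 at 48 h. Cyp4a genes resemble each other and can exchange reads.

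With etomoxir at 48 h the PPARA target list had 9 of 27 tested genes higher and 0 lower, where 0.129% of all genes were called higher and 0.0808% lower. Its median log2 difference was 0.62. The largest were Cyp4a14 (2.96, SE 0.624, edgeR adjusted p = 0.037), Cyp4a10 (2.38, adjusted p = 0.0308) and Cyp4a31 (1.83, adjusted p = 0.0165). The β-oxidation genes Ehhadh (1.56) and Ech1 (0.69), the pantetheinase gene Vnn1 (1.32) and the carnitine carriers Slc22a5 (0.91) and Slc25a20 (0.56) also rose. The type I members Acot1 (1.15), Acot2 (1.56), Acot3 (1.21) and Acot4 (0.72) were not called, with edgeR adjusted p-values of 0.219, 0.29, 0.457 and 0.231. At 24 h 4 PPARA target genes rose, among them Pex11a (1.28) and Cpt1a (0.75), whose product etomoxir inhibits, and 1 synthetase gene, Acsm2, fell by 1.76. Over all genes 1.58% were called higher and 1.33% lower in that comparison. The PPARA list shares genes with the lists of carnitine acyltransferases, coenzyme A turnover and peroxisomal β-oxidation.

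**Figure D5:**
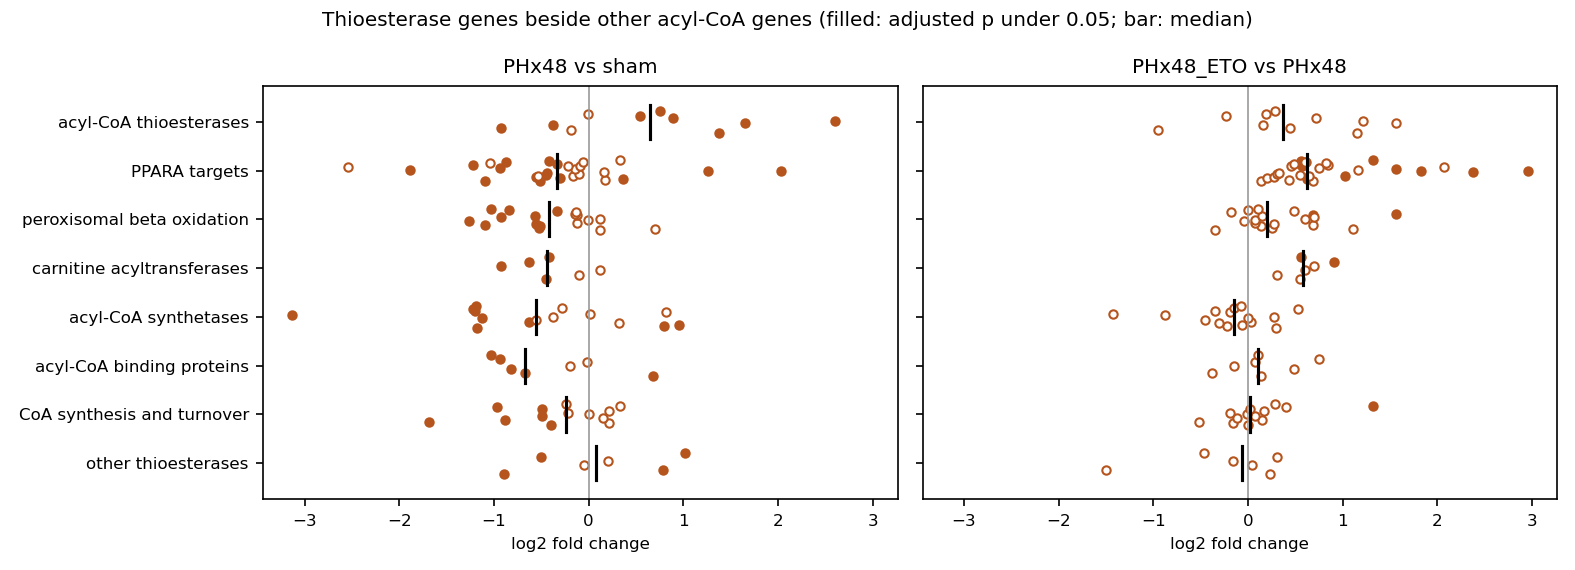
edgeR log2 fold changes (x axis) of the 10 thioesterase genes and of the tested genes of 7 other lists (rows) in PHx48 against sham and in PHx48_ETO against PHx48, filled where the adjusted p was under 0.05, with the list median as a bar. The thioesterase median stands at 0.65 and 0.37, the PPARA target median at -0.33 and 0.62, and the synthetase median at -0.56 and -0.15.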

How the data were processed

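Raw read counts per gene were deposited by the authors, with FPKM values that the authors computed from them. Per the submitters' processing notes the tools included DESeq2 1.20.0, featureCounts 1.5.0-p3, HISAT2 2.0.5, fastp and CASAVA 1.8, and the builds were GRCm38 and mm10. What each did, the annotation release and the strand setting are not stated in the labels. Tested on the table, the FPKM were scaled by median-of-ratios size factors times 16.51 (in 1e+06 counts), so levels are relative to a typical gene. Library sizes ran from 13 to 20.5 (in 1e+06 counts). The highest correlation of log2(FPKM + 1) between 2 libraries of a group was 0.9875.

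Counts of the 12376 genes with at least 1 FPKM in at least 4 libraries were tested in 1 fit of all 27 libraries by the quasi-likelihood F test of edgeR 4.0.16 (R 4.3.3) with TMM normalization. P-values were adjusted over these genes by the Benjamini-Hochberg method, a gene was called under 0.05, and adjusted p-values refer to this test where no other is given. The procedure was tested on simulated counts. There were 6 comparisons.

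The members and lists were chosen with earlier results of these data known. All 10 members are named, with up to 3 called genes of each list by size of change and the 3 genes most correlated with each member. Further called genes were named after their values were seen. Alternatives were DESeq2 1.42.0 (its size factors in edgeR, and its Wald test), limma 3.58.1 on log2(FPKM + 1), log2(FPKM + 0.1) and log2(TPM + 1), no filter, fits of the compared groups alone, a replicate block, leaving out each library, and leaving out the 4 libraries rich in muscle or pancreas transcripts. Promoters came from RefSeq (GRCm38.p6), and shared 50-base stretches and coding identity from GENCODE M21 transcripts. No protein sequence was used here.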

Additional observations from a re-analysis of the deposited data

Results flagged for a closer look

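In 12 of 59 combinations of gene and group, a single library lay far from the other libraries of its group. The criterion is met in about 1 in 20 groups of independent, normally distributed values. FPKM of related genes in the same libraries are not such values, so the count cannot be held against that rate. PHx24 replicate 5 had the highest level of its group for 9 genes (Acot1 to Acot9), and stood far from the rest for 5 of them: Acot1 (13.2 FPKM, the nearest other library being at 7.62), Acot3 (4.04, nearest 1.83), Acot4 (9.75, nearest 6.82), Acot8 (11.4, nearest 9.11) and Acot5 (0.747, nearest 0.312). PHx24_ETO replicate 2 had the highest level of its group for 7 genes (Acot1, Acot2, Acot3, Acot5, Acot6, Acot9 and Acot12). It stood far above the rest for Acot2 (18.8 FPKM, nearest 3.27), Acot5 (18.2, nearest 0.0803) and Acot6 (0.856, nearest 0.331), and far under it for Acot13 (35.6, nearest 44.3). The single flagged value in sham was Acot7 at 6.75 FPKM in replicate 4 (nearest 9.12). In PHx48, Acot11 was at 1.36 FPKM in replicate 3 (nearest 0.867), one of the libraries with muscle transcripts, and Acot5 was at 0.712 FPKM in replicate 4 (nearest 0.195). Acot1, Acot2 and Acot5 share 50-base stretches, so high values of these genes in 1 library may not be separate observations.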

How the results depend on the processing

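The number of thioesterase genes called after resection stayed within 1.5 times its value under every alternative that kept all libraries or left out the 4 rich in muscle or pancreas transcripts. When the compared groups were fitted alone, 2 genes were called in PHx48 against PHx24 (Acot1 and Acot2) in place of 1, and 2 with etomoxir at 48 h (Acot1 and Acot2) in place of 0. Over all genes these fits called 1953 in place of 1435 and 33 in place of 26. Leaving out each library in turn gave 3 to 6 genes in PHx24 against sham (3 without sham replicate 4), 6 to 8 in PHx48 against sham, 0 to 1 in PHx48 against PHx24 and 0 to 1 with etomoxir at 24 h. It gave 0 to 0 with etomoxir at 48 h and for the difference between the times.

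Differences that were not called by edgeR in the main fit changed sign under some settings. On log2(TPM + 1), which moved the median of all genes to 0.19, 0.32 and 0.13 in the 3 comparisons without etomoxir, Acot8 was at 0.14 (24 h against sham) and 0.33 (48 h), Acot11 at 0.13 (48 h) and Acot4 at 0.02 (48 h against 24 h). Of these, Acot8 at 48 h was called higher by limma (adjusted p = 0.00836). On that scale 3780 of 4675 called genes were higher at 24 h and 5688 of 6342 at 48 h, in place of 2366 of 4326 and 2410 of 4513. Without the 4 libraries rich in muscle or pancreas transcripts Acot11 was at 0.31, 0.22 and -0.09 in the comparisons without etomoxir, and Acot12 at -0.03 for the difference between the etomoxir effects.

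On leaving out single libraries, further differences that were not called changed sign. In PHx24 against sham Acot8 ran from -0.13 to 0.02. In PHx48 against sham Acot8 ran from -0.09 to 0.05 and Acot11 from -0.39 to 0.12. In PHx48 against PHx24 Acot11 ran from -0.05 to 0.22 and Acot13 from -0.04 to 0.07. With etomoxir at 24 h Acot1 ran from -0.76 to 0.08, Acot2 from -0.27 to 1.63, Acot3 from -0.54 to 0.18 and Acot4 from -0.02 to 0.16, and at 48 h Acot13 from -0.03 to 0.31. For the difference between the times Acot2 ran from -0.07 to 1.84 and Acot12 from -0.12 to 0.27.

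The main fit did not pair libraries by replicate number. Correlations of same-numbered deviations from the group means ran from -0.23 to 0.66. Between sham and PHx24, 3 of 5 sham libraries matched their own number best. Own-number matches were best for 1 of 5 pairs in PHx48 against sham and 1 of 7 in PHx48 against PHx24. With etomoxir they were best for 1 of 4 at 24 h and 2 of 4 at 48 h. These values do not settle whether sham and PHx24 libraries were paired. With the replicate number as a block, 4 genes were called in PHx24 against sham (Acot7 was lost), 8 in PHx48 against sham, 1 between them and 0 in each etomoxir comparison, and Acot3 with etomoxir at 24 h was at 0.21. Genes called over the whole table with etomoxir ran from 0 to 764 at 24 h and from 9 to 68 at 48 h, so the background shares are uncertain. Low counts limit Acot3 in sham and Acot11.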
